A study of Mus musculus with 8 samples.

Results

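CC chemokines and the ligands of the CSF1 and ST2 receptors were examined in cardiac fibroblasts of wild type (WT) and *Pdgfra-Cre:LmnaF/F* mice. The group was chosen by gene symbol and holds 9 genes, namely *Ccl2*, *Ccl7*, *Ccl8*, *Ccl11*, *Ccl19*, *Cx3cl1*, *Csf1*, *Il33* and *Il34*. Among the 18957 genes of the count data, 8 of the 9 were found, and *Ccl19* was not analysed here. RNA sequencing was performed on PDGFRA-positive cells without hematopoietic lineage markers, sorted by FACS (fluorescence-activated cell sorting) from ventricles at 3 to 4 weeks of age, in 4 WT and 4 *Pdgfra-Cre:LmnaF/F* libraries. The strain label of both groups is C57BL/6 (mixed). In the *Pdgfra-Cre:LmnaF/F* mice both copies of *Lmna*, the gene for lamin A/C, carry loxP sites, and a transgene under *Pdgfra* control drives the Cre recombinase. The WT controls carried neither allele, so the effects of Cre and of *Lmna* deletion cannot be told apart. The Cre is also active in a subset of developing cardiac myocytes, so a part of the myocytes of these hearts loses *Lmna* too. The paper found LMNA protein absent from most, but not all, PDGFRA-positive cells of these hearts. The labels do not say that a library came from more than 1 mouse.

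Chemokines are small secreted proteins that bind to glycosaminoglycans of the matrix and draw leukocytes along their gradient through G protein-coupled receptors. In the heart, fibroblasts are a known source of CCL2 and CCL7, which recruit monocytes carrying CCR2. CSF1 and IL34 both bind CSF1R, the receptor on which macrophages depend for survival. IL33 is a nuclear cytokine that is released from damaged cells and signals through ST2, the product of *Il1rl1*.

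The question for these genes was whether fibroblasts of *Pdgfra-Cre:LmnaF/F* hearts carried more or less RNA for the signals that recruit and maintain macrophages. *Ccl2* and *Ccl7* stood about 4-fold higher on average in the *Pdgfra-Cre:LmnaF/F* fibroblasts, and this difference did not pass the test over all genes. It rested on 3 of the 4 *Pdgfra-Cre:LmnaF/F* libraries, and replicate 4 lay among or below the WT values. None of the other 6 ligands passed the test in any fit run. Of the 8 ligands, 0 passed an adjusted p of 0.05 in edgeR's quasi-likelihood test, against 0.407% of all 13036 genes tested. The ranges of the genotypes overlapped for 8 of 8 ligands, whereas 8.03% of all genes had ranges that did not.

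The 4 CC chemokine genes found lie in 1 cluster on chromosome 11 (GRCm38, plus strand), in the order *Ccl2* (82035571 to 82037453), *Ccl7* (82045712 to 82047525), *Ccl11* (82057823 to 82062955) and *Ccl8* (82115185 to 82116799). *Ccl12*, a further gene of the cluster that encodes a CCR2 ligand, lies between *Ccl11* and *Ccl8*. The coding sequence around the cysteine motif that gives each family its name is shown because the genes resemble each other and their counts are compared below. Each stretch was read from the GENCODE M21 transcripts, runs 5′ to 3′ from exon 1 into exon 2, and has the codons of the first cysteines in capitals.
Ccl2 (chr11:82035737-82036541, plus strand): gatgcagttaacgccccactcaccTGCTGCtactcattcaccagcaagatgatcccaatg
Ccl7 (chr11:82045856-82046573, plus strand): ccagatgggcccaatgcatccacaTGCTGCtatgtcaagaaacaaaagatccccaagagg
Ccl11 (chr11:82058036-82061731, plus strand): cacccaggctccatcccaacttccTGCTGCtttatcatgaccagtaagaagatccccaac
Ccl12 (chr11:82101972-82102669, plus strand): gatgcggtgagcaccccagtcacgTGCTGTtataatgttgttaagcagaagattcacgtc
Ccl8 (chr11:82115306-82116091, plus strand): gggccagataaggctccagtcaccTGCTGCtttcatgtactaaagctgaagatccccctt
Cx3cl1 (chr8:94772334-94778095, plus strand): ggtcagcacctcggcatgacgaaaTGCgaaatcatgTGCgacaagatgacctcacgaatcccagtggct

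In the CC genes the codons of the first cysteines are adjacent, whereas 3 codons separate them in *Cx3cl1*, the gene for fractalkine (chromosome 8, 94772009 to 94782427). The coding sequences of *Ccl2* and *Ccl7* were 69.1% identical (201 of 291 aligned bases). Over the 10 pairs among the 5 CC genes the identity lay between 64.2% and 70.5%, and the longest run of identical bases in a pair was 11 to 21 bases, against a read length of 150 bases. *Ccl2* is overlapped on the opposite strand by *Gm17268*, which had 0 counts in 6 of the 8 libraries, 4 in WT replicate 4 and 16 in *Pdgfra-Cre:LmnaF/F* replicate 1. *Il34* is overlapped by the antisense genes *Gm15894* and *Gm15895*. The libraries keep the strand, but the strand setting of the counting is not given in the sources used here.

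The libraries held 2080555 to 10741519 counts in WT and 8284882 to 12502949 in *Pdgfra-Cre:LmnaF/F*. *Lmna* fell in *Pdgfra-Cre:LmnaF/F*, from 274 to 483 CPM (counts per 1000000 of the TMM-scaled library size) in WT to 90.4 to 130.0 CPM, with a log2 fold change of -1.72 (SE 0.22, adjusted p = 0.00182, edgeR). RNA of Y-linked genes was present in WT replicates 1, 2 and 4 and in *Pdgfra-Cre:LmnaF/F* replicate 4 (143 to 273 CPM), and was at most 1.96 CPM in the other 4 libraries, so the genotypes are unbalanced in sex. The 10 fibroblast markers summed to 49488 to 57147 CPM in WT and 43077 to 62039 CPM in *Pdgfra-Cre:LmnaF/F*, and *Pdgfra* itself stood at 1275 to 2108 CPM and 1807 to 2762 CPM. *Postn*, 1 of the 10, stood at 3040 CPM in *Pdgfra-Cre:LmnaF/F* replicate 4. It stood at 292.5 to 568.0 CPM in replicates 1 to 3 and at 203.7 to 595.3 CPM in WT. The 15 macrophage and monocyte markers summed to 86.6 to 234 CPM in WT and 81.4 to 683 CPM in *Pdgfra-Cre:LmnaF/F*. The 8 cardiomyocyte markers summed to 269 to 617 CPM and 192 to 3169 CPM. *Pdgfra-Cre:LmnaF/F* replicate 4 held the highest value of both sums. In sorted bulk RNA, fewer cells of a type and less RNA per cell cannot be told apart.

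*Ccl2* encodes the main CCR2 ligand of the mouse. Its level was 28.6, 10.1, 28.4 and 32.2 CPM in WT replicates 1 to 4. In *Pdgfra-Cre:LmnaF/F* replicates 1 to 4 it was 211.5, 148, 62.9 and 15.6 CPM. Replicates 1, 2 and 3 lay above every WT library, and replicate 4 lay below 3 of the 4. On the log2 scale the fold change was 2.10 (SE 0.77, adjusted p = 0.353, edgeR).

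*Ccl7* encodes a second CCR2 ligand, which also binds CCR1 and CCR3. WT replicates 1 to 4 held 15.2, 16.1, 19.97 and 15.01 CPM, the narrowest relative spread of the 8 ligands in WT (16.6 ± 2.31). The values in *Pdgfra-Cre:LmnaF/F* replicates 1 to 4 were 96.7, 112, 38.3 and 4.50 CPM. Replicates 1 to 3 again exceeded all WT libraries, and replicate 4 lay below all of them. Its log2 fold change was 1.92 (SE 0.81, adjusted p = 0.405, edgeR). *Ccl2* and *Ccl7* were the 2 of 8 ligands with an unadjusted p under 0.05 and were both higher, a threshold that 6.14% of all genes tested passed in that direction and 11.8% in either.

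**Figure D1:**
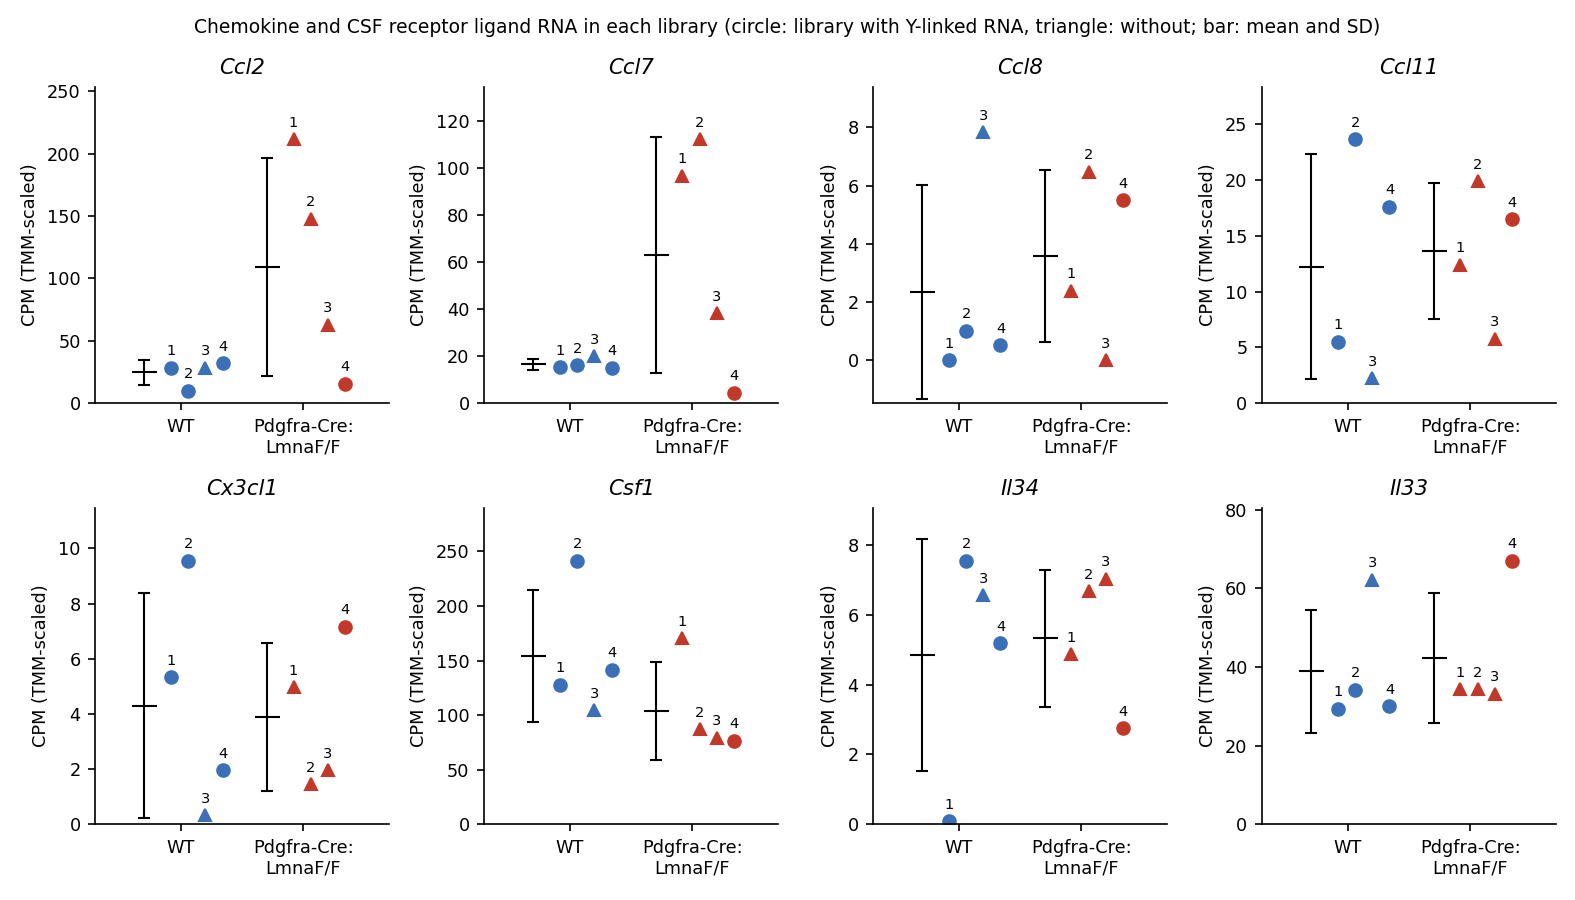
CPM of the 8 ligands in each library, with 1 panel and 1 linear axis per gene. Points are libraries with their replicate number, circles mark libraries with Y-linked RNA and triangles those without, and the bar beside them is the mean and SD of the 4 libraries. *Pdgfra-Cre:LmnaF/F* replicates 1 to 3 stand above WT for *Ccl2* and *Ccl7*, replicate 4 does not, and in the other 6 panels the genotypes overlap.

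Whether *Ccl2* and *Ccl7* passed the test in edgeR depended on *Pdgfra-Cre:LmnaF/F* replicate 4. Without *Pdgfra-Cre:LmnaF/F* replicate 4, *Ccl2* had a log2 fold change of 2.46 (SE 0.41, adjusted p = 0.0210) and *Ccl7* of 2.31 (SE 0.33, adjusted p = 0.00236) in edgeR, and both passed the test, as did 0.602% of all genes in that fit. Replicate 4 held the least *Ccl2* and *Ccl7* of its genotype, so this result follows in part from which library was omitted. The fit also left no *Pdgfra-Cre:LmnaF/F* library with Y-linked RNA. In DESeq2 with 1 factor of unwanted variation, a design near that of the study, *Ccl2* passed at 1.60 (SE 0.41, adjusted p = 0.00679), *Ccl7* did not at 1.09 (adjusted p = 0.126), and 3.96% of all genes passed. With the presence of Y-linked RNA as a covariate in edgeR, the log2 fold changes were 0.84 (SE 0.95, adjusted p = 0.759) for *Ccl2* and 0.21 (SE 0.98, adjusted p = 0.952) for *Ccl7*.

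Among the 4 libraries without Y-linked RNA, *Ccl2* averaged 140.8 CPM in 3 *Pdgfra-Cre:LmnaF/F* libraries and stood at 28.4 CPM in the 1 WT library. *Ccl7* averaged 82.4 CPM against 19.97 CPM in the same libraries. Among the 4 libraries with Y-linked RNA the order was the other way, with 15.6 CPM of *Ccl2* in the 1 *Pdgfra-Cre:LmnaF/F* library against a mean of 23.6 CPM in 3 WT libraries, and 4.50 against 15.5 CPM of *Ccl7*. Each of these comparisons rests on 1 library on 1 side, and sex and single library cannot be told apart.

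**Figure D2:**
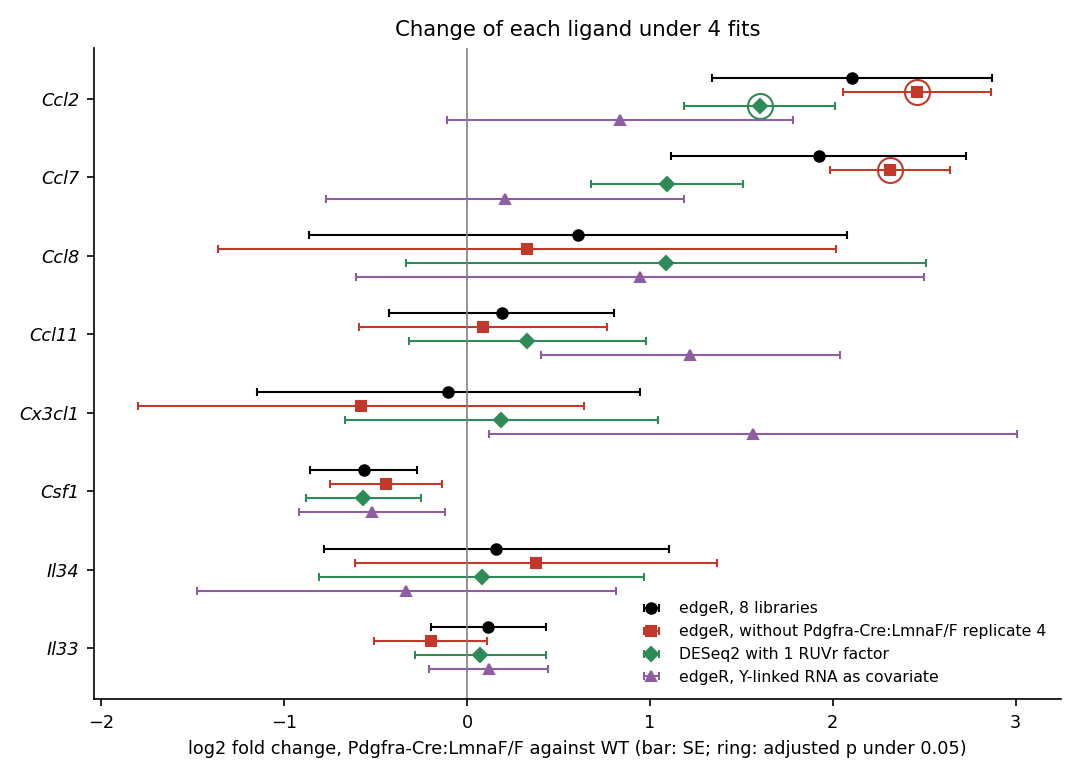
Log2 fold change of each ligand between *Pdgfra-Cre:LmnaF/F* and WT under 4 fits, with bars for the SE and rings around values with an adjusted p under 0.05. *Ccl2* and *Ccl7* are ringed in the fit without *Pdgfra-Cre:LmnaF/F* replicate 4, *Ccl2* also in DESeq2 with 1 factor of unwanted variation, and no other ligand is ringed.

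*Ccl2* and *Ccl7* moved together from library to library. Their log2 CPM had a Pearson r of 0.893 over the 8 libraries, and 0.887 after the mean of each genotype was removed. *Ccl7* ranked 24th of the 13035 other genes tested in likeness to *Ccl2*, and *Ccl2* likewise ranked 24th for *Ccl7*. The ratio of *Ccl2* to *Ccl7* counts per kilobase of exon was 0.440 to 1.51 in WT and 0.929 to 2.44 in *Pdgfra-Cre:LmnaF/F*. Among the other pairs of ligands the highest r was 0.697, between *Ccl8* and *Il33*, followed by 0.611 between *Ccl11* and *Cx3cl1*. The 8 points of each correlation share a genotype, a sex and a depth in part, so these values are descriptions.

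**Figure D3:**
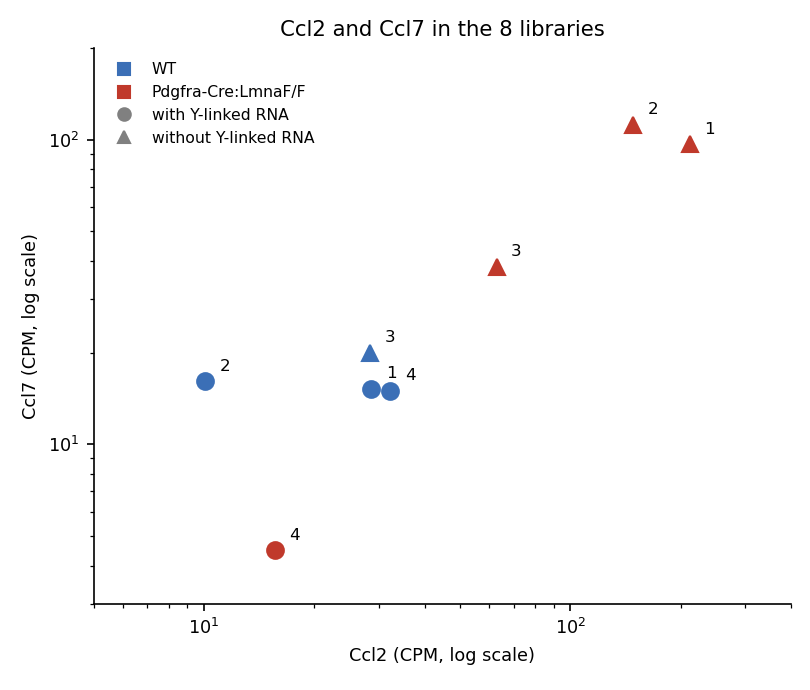
*Ccl7* against *Ccl2* in the 8 libraries, in CPM on log axes, with colour for genotype, shape for Y-linked RNA and the replicate number beside each point. *Pdgfra-Cre:LmnaF/F* replicates 1 to 3 lie at the upper right, from 62.9 to 211.5 CPM of *Ccl2*, and replicate 4 lies at 15.6 CPM of *Ccl2* and 4.50 CPM of *Ccl7*.

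*Ccl11* encodes eotaxin, which attracts eosinophils through CCR3. It was measured at 5.51, 23.7, 2.24 and 17.6 CPM in WT and at 12.4, 19.9, 5.76 and 16.5 CPM in *Pdgfra-Cre:LmnaF/F*. The WT libraries alone spanned a wider range than the *Pdgfra-Cre:LmnaF/F* libraries, and the log2 fold change was 0.19 (SE 0.61, adjusted p = 0.949, edgeR).

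*Ccl8* encodes a CC chemokine that acts through CCR8 in the mouse. Its counts were 0, 2, 49 and 5 in WT and 23, 62, 0 and 66 in *Pdgfra-Cre:LmnaF/F*. A library with 0 counts occurred in each genotype, which at the limit of 3 counts allows up to 0.2803 CPM in WT replicate 1 and 0.345 CPM in *Pdgfra-Cre:LmnaF/F* replicate 3, for counting error only. The log2 fold change of 0.61 carried an SE of 1.47 (adjusted p = 0.929, edgeR), and it was 2.997 (adjusted p = 0.580) without WT replicate 3, the WT library with 49 counts, so a difference of several fold either way was not detectable.

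*Cx3cl1*, whose product is held on the membrane until a protease sheds it, was scarce. Its counts were 57, 19, 2 and 19 in WT and 48, 14, 17 and 86 in *Pdgfra-Cre:LmnaF/F*, or 4.29 ± 4.08 against 3.89 ± 2.68 CPM. The log2 fold change was -0.10 (SE 1.05, adjusted p = 0.981, edgeR), and its sign differed between fits.

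*Csf1* (chromosome 3, 107741048 to 107760469, minus strand) encodes the macrophage growth factor CSF1. Its level was 128, 242, 105 and 142 CPM in WT and 170.5, 87.0, 79.4 and 76.7 CPM in *Pdgfra-Cre:LmnaF/F*. *Pdgfra-Cre:LmnaF/F* replicates 2, 3 and 4 lay below every WT library, and replicate 1 lay above 3 of the 4. The log2 fold change was -0.57 (SE 0.29, adjusted p = 0.481, edgeR), negative in each alternative fit, with none of them past the threshold.

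*Il34* (chromosome 8, 110741829 to 110805924, minus strand) encodes the other CSF1R ligand. It held 0.0934, 7.55, 6.55 and 5.18 CPM in WT and 4.86, 6.67, 7.02 and 2.75 CPM in *Pdgfra-Cre:LmnaF/F*. WT replicate 1 had a single count. Its log2 fold change was 0.16 (SE 0.95, adjusted p = 0.969, edgeR).

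*Il33* (chromosome 19, 29925114 to 29960718, plus strand) lay in a narrow band apart from 1 library of each genotype. WT replicates 1 to 4 held 29.4, 34.2, 62.2 and 30.03 CPM. *Pdgfra-Cre:LmnaF/F* replicates 1 to 4 held 34.3, 34.3, 33.3 and 67.1 CPM. The log2 fold change was 0.12 (SE 0.32, adjusted p = 0.937, edgeR), the smallest SE of the 8 ligands after that of *Csf1*.

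Per kilobase of exon, the order of mean levels in WT was *Csf1* (29.1 CPM per kb), *Ccl2* (21.8), *Ccl7* (20.7), *Il33* (13.5), *Ccl11* (11.3), *Ccl8* (4.58), *Il34* (2.47) and *Cx3cl1* (1.09). Each neighbouring pair in this order had overlapping ranges over the 4 WT libraries. *Ccl7* exceeded *Il33* within each WT library. The other neighbouring pairs changed order between WT libraries, so their order was not resolved. In *Pdgfra-Cre:LmnaF/F* the mean of *Ccl2* was highest (96.2 ± 76.8 CPM per kb), followed by *Ccl7* (78.6 ± 62.8) and *Csf1* (19.6 ± 8.51), and the other 5 kept their order. By mean level per kilobase, *Csf1* stood at the 88.5th percentile of the 13006 genes with a length in WT and *Cx3cl1* at the 16.5th. *Ccl2* stood at the 84.3rd percentile in WT and the 97.4th in *Pdgfra-Cre:LmnaF/F*.

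Receptors and decoys of these ligands and of related chemokines and colony-stimulating factors were read as a list of 18 genes, of which 17 were found and 11 passed the filter on low counts. None was called, and the median log2 fold change was -0.46, against 0.03 over all genes tested. Genes for 3 atypical receptors, which bind chemokines without G protein signalling and clear them, had lower values in all 4 *Pdgfra-Cre:LmnaF/F* libraries than in any WT library. *Ackr2*, whose product degrades inflammatory CC chemokines including CCL2 and CCL7, stood at 77.6, 75.5, 74.1 and 80.6 CPM in WT and at 62.7, 53.1, 21.9 and 19.1 CPM in *Pdgfra-Cre:LmnaF/F* (log2 fold change -0.97, SE 0.33, adjusted p = 0.227, edgeR). *Ackr3*, whose product takes up CXCL12 and is no receptor of the 9 ligands, stood at 713, 678, 508 and 772 CPM in WT and at 447, 297, 155 and 226 CPM in *Pdgfra-Cre:LmnaF/F* (-1.25, SE 0.28, adjusted p = 0.0609, edgeR). *Ackr4*, whose product takes up CCL19, CCL21 and CCL25, stood at 90.5, 179.6, 115 and 141 CPM in WT and at 87.1, 54.2, 39.8 and 73.2 CPM in *Pdgfra-Cre:LmnaF/F* (-1.04, SE 0.26, adjusted p = 0.109, edgeR). With *Il1rap*, the shared chain of the IL1 and IL33 receptors (-0.46, SE 0.23, adjusted p = 0.458), 4 of 11 listed genes did not overlap and were lower, against 3.97% of all genes, and 3 of 11 had an unadjusted p under 0.05 and were lower, against 5.70%. *Ackr3* passed the threshold in 7 of 11 alternative fits with all 8 libraries, *Ackr4* in 3 and *Ackr2* in 2, and in 2, 0 and 0 of the 8 fits that omitted 1 library. The sign was negative in each.

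**Figure D4:**
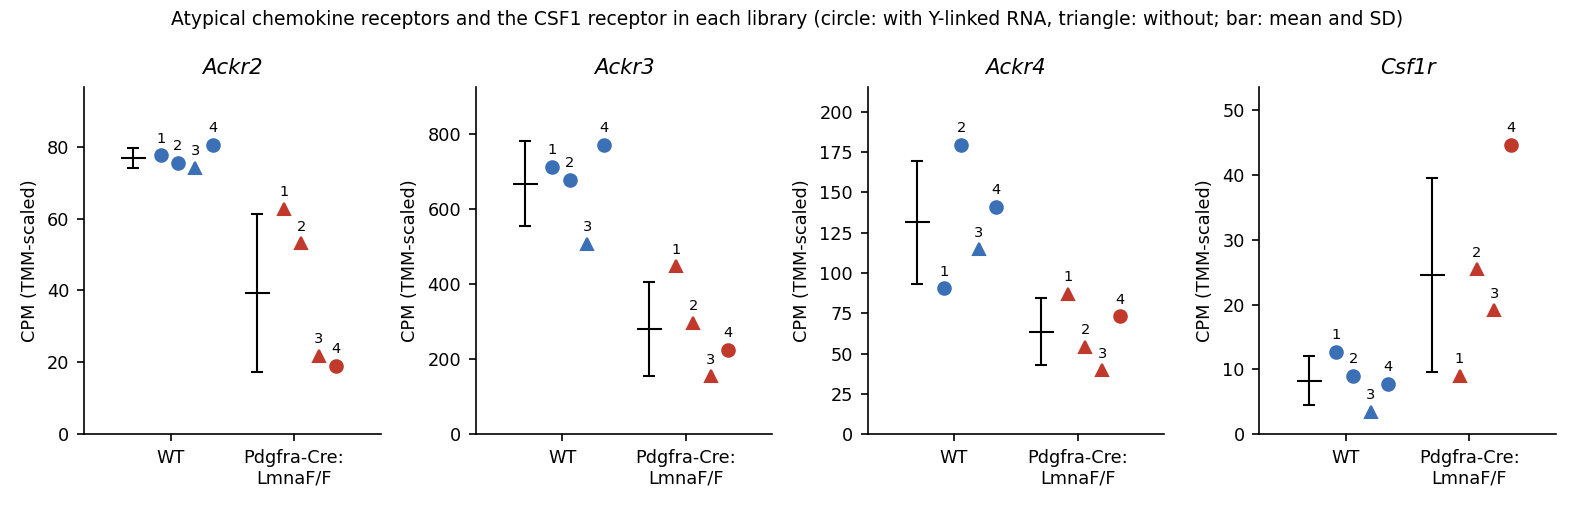
CPM of 3 atypical chemokine receptor genes and of *Csf1r* in each library, marked as in the plot of the ligands, with the mean and SD of 4 libraries. *Ackr2*, *Ackr3* and *Ackr4* lie lower in every *Pdgfra-Cre:LmnaF/F* library than in any WT library, without passing the test, and *Csf1r* reaches its highest value of 44.7 CPM in *Pdgfra-Cre:LmnaF/F* replicate 4.

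Of the signalling receptors, *Csf1r* held 12.7, 9.06, 3.52 and 7.77 CPM in WT and 8.999, 25.4, 19.1 and 44.7 CPM in *Pdgfra-Cre:LmnaF/F* (log2 fold change 1.57, SE 0.50, adjusted p = 0.198, edgeR), and it passed in 3 of 11 alternatives with all 8 libraries and in 0 of the 8 fits that omitted 1. *Cx3cr1*, the fractalkine receptor, held 10.1 to 19.8 CPM in WT and 4.86 to 74.8 CPM in *Pdgfra-Cre:LmnaF/F* (0.95, SE 0.67, adjusted p = 0.650). Both are among the 15 macrophage and monocyte markers and peaked in replicate 4, the library with the highest sum of that list. Without replicate 4 the log2 fold change of *Csf1r* was 1.11 (adjusted p = 0.454, edgeR), with replicates 2 and 3 above every WT library for this gene and within the WT range for the sum (165 and 180.1 CPM). *Ccr2* had 0 to 32 counts in WT and 0 to 80 in *Pdgfra-Cre:LmnaF/F* (0.09, SE 1.60), and *Il1rl1* had 4 to 18 and 0 to 26 counts (-0.65, SE 1.61). *Csf2ra* (-0.12), *Csf2rb* (-0.56) and *Sdc1* (-0.05) did not pass either. *Ccr1*, *Ccr7*, *Csf3r*, *Ackr1* and *Ptprz1* were too low to test, with at most 38 counts in a library.

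Of 25 other ligands of these families, 21 were found and 9 passed the filter. None was called and none had an unadjusted p under 0.05, and their median log2 fold change was 0.24. *Ccl12* had at most 9 counts in a library. The 4 with the lowest p were *Tslp* (1.65, SE 1.03, adjusted p = 0.583), an epithelial and stromal cytokine, *Il1b* (1.33, SE 1.67), *Ccl27a* (-0.72, SE 0.90) and *Ccl9* (0.79, SE 1.02). The stromal growth factors *Flt3l* and *Kitl* were better covered, at 23.3 ± 4.89 against 25.3 ± 12.3 CPM and 33.8 ± 14.5 against 38.8 ± 14.4 CPM.

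*Ccl2* and *Ccl7* are known targets of NF-kB, the transcription factor downstream of the TNF and IL1 receptors. Gene set enrichment in the paper predicted activation of TNFA signalling via NF-kB. The list read here holds genes for the components of this pathway, and NF-kB activity was not tested. Of 29 genes of this pathway, from the receptors to NF-kB and its inhibitors, all were tested, 0 were called and the median log2 fold change was 0.07. An unadjusted p under 0.05 was found for 3 that were higher and 2 that were lower, against 6.14% and 5.70% of all genes. The 3 higher genes encode feedback inhibitors or modulators of NF-kB. They were *Nfkbiz* (0.95, SE 0.21, adjusted p = 0.0609), *Tnfaip3* (1.18, SE 0.36, adjusted p = 0.186) and *Nfkbia* (0.57, SE 0.24, adjusted p = 0.354). With all 8 libraries *Nfkbiz* passed in 6 of 11 alternatives, *Tnfaip3* in 1 and *Nfkbia*, which is also on the dissociation list below, in 0. In the 8 fits that omitted 1 library they passed in 2, 0 and 0. *Tlr2* (-1.29, SE 0.56, adjusted p = 0.372) and *Nfkb1* (-0.44, SE 0.19, adjusted p = 0.382) were the lower ones. The value of *Tlr2* rested on WT replicate 3 (45.1 CPM, against 5.98 to 14.9 CPM in the other WT libraries) and was -0.48 without it (adjusted p = 0.823, edgeR). *Nfkbiz* and *Tnfaip3* were higher, and *Nfkb1*, which encodes an NF-kB subunit, was lower, in all 4 *Pdgfra-Cre:LmnaF/F* libraries than in any WT library, as were 4.06% and 3.97% of all genes. *Ccl2* and *Ccl7* overlapped between the genotypes.

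A list of 19 genes for the shedding, trimming and matrix retention of these ligands and for the decay of their mRNA had 17 members tested, 0 called and a median of -0.16. *Zfp36*, which encodes tristetraprolin, a protein that promotes decay of AU-rich cytokine mRNAs, stood at 93.1 ± 24.6 CPM in WT and 195 ± 44.0 CPM in *Pdgfra-Cre:LmnaF/F* (log2 fold change 1.06, SE 0.23, adjusted p = 0.0524, edgeR). *Adam17*, which encodes a sheddase of fractalkine and of CSF1, stood at 231 ± 53.5 and 135 ± 25.9 CPM (-0.78, SE 0.21, adjusted p = 0.127). The genotypes did not overlap for either gene, 2 of 17 against 8.03% of all genes. With all 8 libraries *Zfp36*, which is also on the dissociation list below, passed in 7 of 11 alternatives and *Adam17* in 5, and in 1 and 0 of the 8 fits that omitted 1 library. The next lowest p were those of *Ext2* (-0.36, adjusted p = 0.489), of heparan sulfate synthesis, and *Dpp4* (-0.53, adjusted p = 0.641), whose product trims chemokines.

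Genes that respond to the enzymatic dissociation of tissue were listed because *Ccl2* RNA can also be induced while cells are isolated. Of the 30 listed, 4 rose, 0 fell and 26 did not pass the test, and 15 were higher without overlap, against 0.407% of all genes called in either direction and 4.06% higher without overlap. Their median log2 fold change was 0.96. The 4 that rose were *Atf3* (2.18, adjusted p = 0.0467), *Ier3* (1.88, adjusted p = 0.0161), *Btg2* (2.08, adjusted p = 0.0325) and *Gadd45b* (1.74, adjusted p = 0.0190), of which *Ier3* and *Gadd45b* passed in 11 of 11 alternatives with all 8 libraries, *Btg2* in 10 and *Atf3* in 7. In the 8 fits that each omitted 1 library, *Gadd45b* passed in 8, *Ier3* in 6, *Btg2* in 3 and *Atf3* in 2, with the highest adjusted p at 0.0440, 0.0594, 0.131 and 0.191. The calls of *Ier3*, *Btg2* and *Atf3* were lost without WT replicate 4 and without *Pdgfra-Cre:LmnaF/F* replicate 3, those of *Btg2* and *Atf3* also without WT replicate 1 and *Pdgfra-Cre:LmnaF/F* replicate 2, that of *Btg2* without *Pdgfra-Cre:LmnaF/F* replicate 4 and that of *Atf3* without WT replicate 2 or 3. The list summed to 6889, 5539, 8743 and 6114 CPM in WT and to 11263, 12757, 16985 and 12993 CPM in *Pdgfra-Cre:LmnaF/F*. Every *Pdgfra-Cre:LmnaF/F* library exceeded every WT library in this sum. The library with the highest sum, replicate 3, held less *Ccl2* than replicates 1 and 2, and replicate 4 held 15.6 CPM of *Ccl2* at the second highest sum. The part of this response in the levels of *Ccl2* and *Ccl7* was not tested.

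**Figure D5:**
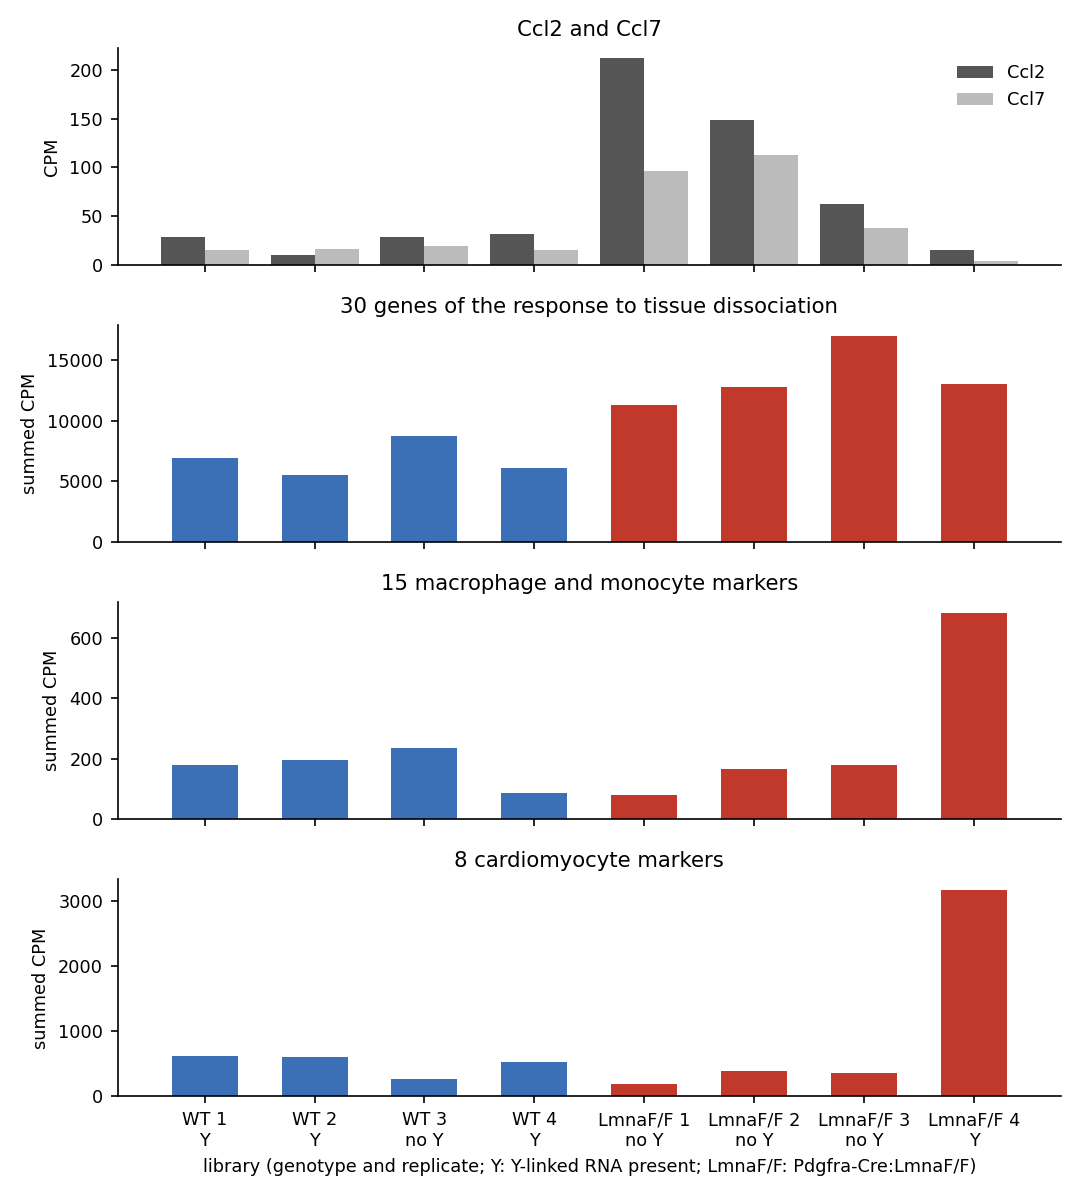
From top to bottom, *Ccl2* and *Ccl7* in CPM and the summed CPM of 30 dissociation-response genes, 15 macrophage and monocyte markers and 8 cardiomyocyte markers, as bars for the 8 libraries. *Pdgfra-Cre:LmnaF/F* replicate 4 joins low *Ccl2* and *Ccl7* with the highest macrophage (683 CPM) and cardiomyocyte (3169 CPM) sums, while the dissociation sum is above WT in all 4 *Pdgfra-Cre:LmnaF/F* libraries.

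Markers of other cell types were read beside *Ccl2* and *Ccl7*. *Pdgfra-Cre:LmnaF/F* replicate 1, with the most *Ccl2*, had the lowest macrophage sum (81.4 CPM) and the lowest cardiomyocyte sum (192 CPM) of the 8 libraries. Of the 15 macrophage and monocyte markers 13 were tested and 0 were called, and 12 had a higher mean in *Pdgfra-Cre:LmnaF/F* (median log2 fold change 0.63), which became 4 of 13 (median -0.32) without *Pdgfra-Cre:LmnaF/F* replicate 4. Of the 7 cardiomyocyte markers tested, 6 had a higher mean with all libraries and 1 without replicate 4. The part of macrophage RNA in the levels of the ligands was not tested. The 9 endothelial markers summed to 580 to 808 CPM in WT and 463 to 602 CPM in *Pdgfra-Cre:LmnaF/F*. Of the 9, 7 were lower and 2 higher (median log2 fold change -0.28), and 0 were called. Lower without overlap were 2, against 3.97% of all genes. The part of endothelial RNA in the levels of *Ackr2*, *Ackr3* and *Ackr4* was not tested. The 8 lymphocyte and granulocyte markers found summed to at most 10.2 CPM in a library. The 7 mural markers summed to 252 to 408 and 219 to 425 CPM, the 5 mesothelial markers to 8.47 to 42.8 and 6.67 to 14.3 CPM, and the 5 lymphatic endothelial markers to 167 to 193.8 and 91.4 to 176 CPM.

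The genes most like each ligand over the 8 libraries were named by the Pearson r of log2 CPM among 13036 genes tested, a choice from many that yields high values by itself. For *Ccl2* they were *Srp54c* (r = 0.971), *Tbl1xr1* (0.958) and *Zfyve16* (0.957). For *Ccl7* they were *Vcam1*, a leukocyte adhesion molecule (r = 0.986), a gene that the table lists under the date 10-Sep (0.978) and *Ppa1* (0.971). *Csf1* was nearest to *Fndc1* (r = 0.988), *Mfsd5* (0.973) and *Zdhhc5* (0.966). For *Il33* they were *Fam214a* (r = 0.958), *Phax* (0.946) and *Ccdc166* (0.940), and for *Il34* *Zdhhc2* (0.983), *Tiam2* (0.957) and *Ccdc126* (0.939). *Ccl8* was nearest to *H2-T23* (r = 0.958), *Abt1* (0.954) and *Gab1* (0.953), *Ccl11* to *Pex11a* (0.962), *Gm11168* (0.950) and *Vill* (0.944), and *Cx3cl1* to *Smn1* (0.984) and *Evl* (0.955). No ligand was among the 3 nearest of another.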

How the data were processed

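RNA with an RNA integrity number above 8 was depleted of ribosomal RNA and sequenced as strand-specific, paired-end libraries with reads of 150 bases. The authors aligned reads to mm10 with HISAT2 and deposited raw counts per gene from featureCounts; the deposited counts carry no normalization or correction. The GENCODE release is not given in the sources used here, and positions and lengths were taken from GENCODE M21 (GRCm38). The deposited table holds genes with at least 4 counts over the 8 libraries.

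Groups were taken from the labels. Counts were kept by filterByExpr, scaled by TMM and tested with edgeR 4.0.16 (robust quasi-likelihood, genotype only, two-sided, Benjamini-Hochberg over all genes tested, threshold 0.05) in R 4.3.3. CPM are TMM-scaled, and log2 CPM used a prior count of 2. Alternatives were DESeq2 1.42.0, limma 3.58.1 (voom with quality weights), other scalings and filters, 1 RUVr factor, a replicate block and each library left out. A covariate for Y-linked RNA (a sum above 20 CPM) and a non-robust fit were added after the data were seen. The procedure was tested on simulated data. Depth limits a count of 0 to under 0.250 to 1.51 CPM (3 counts). P-values set the difference between genotypes against the spread between libraries of a genotype.

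The members and the gene lists were chosen with earlier results of these data known. Named from each list were the genes past the threshold and up to 4 with the lowest p, the receptors of the ligands, and the 3 tested genes nearest to each ligand by r; *Nfkb1*, *Il1rap*, *Flt3l*, *Kitl*, *Ccl12* and *Gm17268* were named after their values were seen. Some genes that this rule names are not reported here.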

Additional observations from a re-analysis of the deposited data

Results flagged for a closer look

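In 5 of the 18 groups of 4 libraries examined (8 ligands and *Lmna* in each genotype), 1 library stood apart from the other 3 by Dixon's criterion, which chance gives in about 1 of 20 groups. *Ccl2* was lowest in WT replicate 2, the shallowest library, at 10.1 CPM. *Ccl8* was highest in WT replicate 3, at 7.83 CPM. *Csf1* was highest in *Pdgfra-Cre:LmnaF/F* replicate 1, at 170.5 CPM. *Il33* was highest in WT replicate 3, at 62.2 CPM, and in *Pdgfra-Cre:LmnaF/F* replicate 4, at 67.1 CPM.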

How the results depend on the processing

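The count of ligands called, 0 of 8 in edgeR, was 1 (*Ccl2*) in DESeq2 with 1 RUVr factor and 0 to 2 in the 8 fits that each omitted 1 library, the 2 being *Ccl2* and *Ccl7* without *Pdgfra-Cre:LmnaF/F* replicate 4. Over all genes 53 were called, against 303 in DESeq2, 123 in limma-voom with quality weights, 282 without a filter, 133 with 1 RUVr factor, 516 in DESeq2 with 1 RUVr factor and 106 with the Y-linked RNA covariate, and 20 to 83 with 1 library left out. *Ccl2* and *Ccl7* were higher in every fit run, by 0.84 to 2.13 and 0.21 to 1.93 on the log2 scale with all 8 libraries, and *Csf1* was lower, at -0.52 to -0.58 with all 8. *Cx3cl1* changed sign in limma-voom (0.25), with 1 RUVr factor (0.19), in DESeq2 with 1 RUVr factor (0.19), with the replicate block (0.46) and with the Y-linked RNA covariate (1.56), and *Il34* with that covariate (-0.33). In limma-voom the log2 fold change was 1.90 for *Ccl8* and 1.30 for *Il34*, and with the Y-linked RNA covariate 1.22 for *Ccl11*. With 1 library left out, the log2 fold change ranged from 0.16 to 2.997 for *Ccl8* (the highest without WT replicate 3; 2.53 with the replicate block and all libraries, 0.61 without), -0.92 to -0.27 for *Csf1*, -0.17 to 0.68 for *Ccl11*, -0.58 to 0.60 for *Cx3cl1*, -0.20 to 0.44 for *Il33*, -0.26 to 0.44 for *Il34* and -0.21 to 1.62 for *Ccl9*. The cause of these changes was not tested. Libraries with the same replicate number did not deviate together (correlations -0.030 to 0.040), so the numbers do not pair the mice; with the replicate block 51 genes were called, 0 of them ligands, and *Ccl2* had a log2 fold change of 1.72. *Ccl8*, *Cx3cl1* and *Il34* had at most 86 counts in a library, and the part of depth in their spread was not tested.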
